A study of Mus musculus with 15 samples.

Results

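Knockdown of Rpl11 was set against knockdown of 3 other proteins of the large (60S) ribosomal subunit, Rpl14, Rpl18 and Rpl23, in E14 mouse embryonic stem cells. The comparison took the 3 siRpl11 libraries against the mean of the group means of the 9 siRpl14, siRpl18 and siRpl23 libraries; these are 12 of the 15 libraries of the series, and no control library entered it. All cells were E14 cells grown on gelatin, in serum medium with leukemia inhibitory factor, and each group had been transfected with small interfering RNA (siRNA) against the named gene with DharmaFECT. The other 3 libraries, from cells given non-targeting siRNA (siNT), are quoted only as a reference level. The titles give 48 h of treatment for all groups, and the protocol gives harvest after 3 days of knockdown. Expression was measured by stranded mRNA sequencing and deposited as FPKM, fragments scaled by transcript length and by the fragments of the library. Replicates 1 and 2 of each group came in one table and the third libraries in another table, normalized separately. The labels do not say whether replicates were separate cultures, and the p-values reflect only how far these libraries differ among themselves, which could be technical variation. Of 24819 genes in the tables, the 12190 at 1 FPKM or more in 2 or more of the 12 libraries were described.

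Ribosomal proteins of the large subunit are made in step with ribosomal RNA, and loss of most of them stops assembly of the 60S particle. Rpl11 and Rpl5 join with 5S ribosomal RNA in a small particle, the 5S RNP, that is built into the growing subunit. When assembly stalls, free 5S RNP binds Mdm2, the ubiquitin ligase that marks p53 for degradation, and blocks it. Loss of most large-subunit proteins therefore stabilizes p53 through Rpl11, while loss of Rpl11 removes part of the particle that does so. In mouse embryonic stem cells p53 is also known for acting on genes of the 2-cell-like state, a rare and passing state in which genes of the 2-cell embryo, such as Dux and the Zscan4 cluster, are active.

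In every sentence that gives 3 values for a group, the first and second are replicates 1 and 2 and the third is the library of the separate table. Replicate pairs correlated at 0.991 to 0.996 across genes (Pearson's r of log2 values, genes not being independent). The depth of the libraries is unknown. In the steps of the low FPKM values, relative depth could be resolved for 5 of the 8 libraries of the first table, at 0.754 to 1.39 of that of 1 siNT library, with siRpl11 replicate 2 the deepest. The siRpl11 libraries held fewer genes at 1 FPKM or more, 11004, 10988 and 10937, than the other 6 of the first table (11545 to 11667) and the other 3 of the third (11475 to 11618). Ribosomal protein genes took 30.6% and 31.7% of their summed FPKM against 26.8% to 28.5% in the other first-table knockdown libraries. Among the third libraries the share was 34.0% in siRpl11, 31.35% in siRpl18 and 33.4% in siRpl23, with siRpl14 between the last 2. All 10 embryonic stem cell markers were above 1 FPKM in all 12 libraries (76.6 to 3834 FPKM). Of 8 fibroblast or feeder markers, 7 were under 1 FPKM in all 12 libraries and 3 of these at 0. Of these fibroblast markers only Thy1 was above 1 FPKM.

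The targeted gene was read first. Rpl11 stood at 168, 187 and 170.3 FPKM in siRpl11, 691, 766 and 841 in siRpl14, 703, 799 and 777 in siRpl18 and 743, 783 and 832 in siRpl23. The siRpl11 libraries did not overlap the others, and the log2 difference was -2.07 ± 0.07 (SE, adjusted p = 1.3e-07). Rpl14 was at 605, 629 and 698 FPKM in the siRpl14 libraries and at 1361, 1363 and 1910.0 in siRpl11. Rpl18 was at 614, 670.4 and 905 FPKM in the siRpl18 libraries and at 2335, 2488 and 3585 in siRpl11. Rpl23 was at 412, 436 and 320.1 FPKM in the siRpl23 libraries and at 1499, 1604 and 1269 in siRpl11. Each label was matched by a low level of its own target. How far each target was reduced differed between groups, with siRpl14 keeping the highest share, and its part in the differences below was not tested.

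Most of the tested genes differed between siRpl11 and the mean of the other 3 knockdowns: 7672 of 12190 (62.9%). By limma on log2(FPKM + 1), with Benjamini-Hochberg adjustment over all genes and adjusted p under 0.05 as the call, 2246 genes (18.4%) were higher and 5426 (44.5%) were lower after siRpl11. A 2-fold difference or more was called for 36 genes higher (0.295%) and 488 lower (4%); these counts were 64 and 1004 with a pseudocount of 0.1, 55 and 275 under quantile normalization and 56 and 361 under median-ratio scaling. For 1829 genes (15%) every siRpl11 library was above, and for 4532 (37.2%) below, all libraries of the other 3 knockdowns in its own table; such genes are called apart here. Taken singly, siRpl14 gave 2047 genes higher (16.8%) and 5216 lower (42.8%), siRpl18 2097 higher (17.2%) and 4463 lower (36.6%), and siRpl23 1774 higher (14.6%) and 4962 lower (40.7%). These contrasts share the siRpl11 libraries.

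The split between higher and lower depended on scaling. As deposited, the median gene differed by -0.12 and 29.3% of called genes were higher. Under quantile normalization the median was 0.05 and 56.9% of called genes were higher (4259 higher, 34.9% of all, and 3223 lower, 26.4%). Under median-ratio scaling the median was 0.03 and 54.7% were higher (4302 higher, 35.3% of all, and 3564 lower, 29.2%). Directions below are therefore read against a shift between scalings, which was 0.15 to 0.16 for the median gene and larger for some genes. A list's counts under each scaling are read against the shares of all genes under it. As deposited, the median difference went from -0.23 in the bin of genes lowest in expression to 0.03 in the highest of 5 bins, and likewise in the separate table. The shift between scalings also varied with expression. In the lowest bin the median was 0.06 under quantile normalization, and in the highest bin it was 0.21 under median-ratio scaling. The plot of median difference by expression level shows this slope as deposited and after median-ratio scaling, and a nearly level line after quantile normalization.

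**Figure D1:**
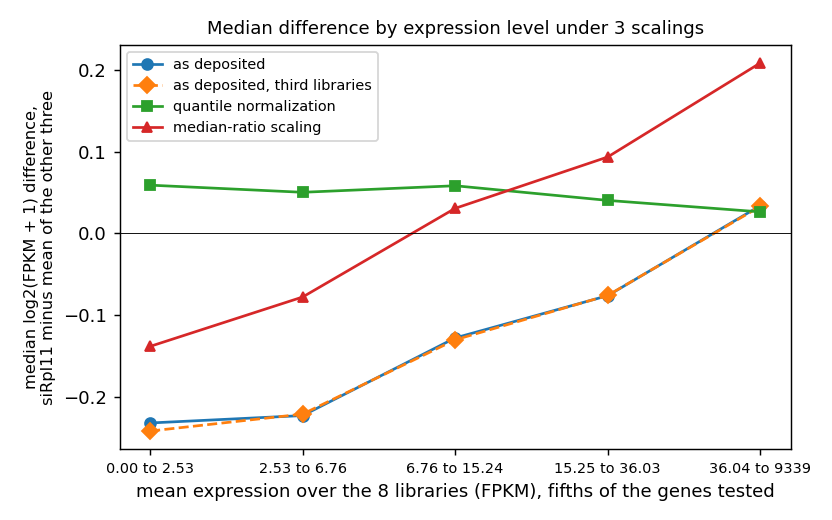
Median log2(FPKM + 1) difference, siRpl11 minus the mean of the other three, in 5 equal bins of the 12190 genes by mean FPKM over the first table's libraries (x axis, in FPKM). Circles are the values as deposited, diamonds the third libraries, squares quantile normalization and triangles median-ratio scaling; the deposited values run from -0.23 to 0.03.

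In the third libraries, which took no part in the calls, 7427 of the 7672 called genes (96.8%) differed in the same direction. Across all tested genes the differences in both tables correlated at r = 0.868; genes are not independent, and this is a description of 4 and 8 libraries. Of the tested genes, 28 were listed at 0 in the 4 libraries of the third set. Among them 4 were called in the first table, Snora65 higher (5.80) and Snord15a (-3.93), Rprl3 (-1.20) and 1700030L20Rik (-1.10) lower. These 4 were picked out after their values were seen, and a listed 0 may be a failed estimate.

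**Figure D2:**
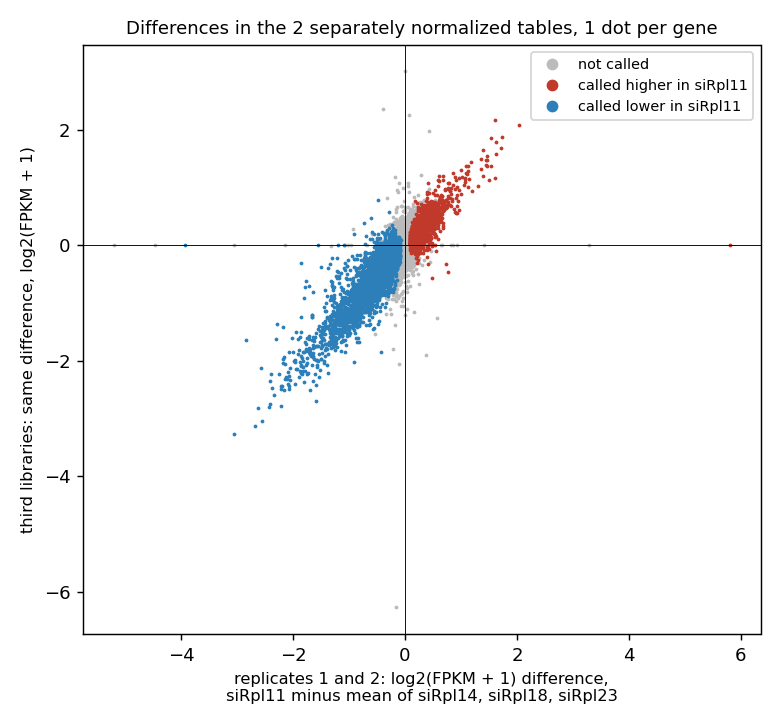
Each dot is 1 of the 12190 genes: x axis, log2(FPKM + 1) difference in replicates 1 and 2; y axis, the same difference in the third libraries. Red and blue mark genes called higher and lower in siRpl11, grey those not called; 7427 of 7672 called genes lie on the same side of 0 on both axes, and dots on the horizontal line at 0 include the 28 genes listed at 0 in the third libraries.

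Most genes that p53 switches on stood lower after siRpl11 than after each of the other knockdowns. Of 53 listed p53 targets, 52 passed the filter; 47 were lower, none was higher and 5 did not pass the test, where 44.5% of all genes were lower; 1 was higher with siRpl18 out of the comparator mean. Of the 50 at 1 FPKM or more in both siRpl11 libraries of the first table, 45 were lower and 0 higher. Of the 47 lower among all 52, 44 were apart from every other library. The median log2 difference was -0.65, beside -0.12 over all genes; it was -0.54 against siRpl14, -0.72 against siRpl18 and -0.66 against siRpl23, and -0.82 in the third libraries. Under quantile normalization 44 members were lower and 1 higher, and under median-ratio scaling 40 and 2.

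p53 binds DNA as a tetramer at a 20-base site made of a pair of like 10-base stretches. In RefSeq promoters of mouse build GRCm38.p6 (250 bases before to 50 after each annotated gene start), whose coordinates are not those of mm9, both strands were searched for adjacent stretches with at most 3 mismatches to the p53 consensus and with the 4 core C and G bases intact. A match was found for 441 of 27025 genes (1.63%), and for 11 of the 44 p53 targets with an entry (25%). The 5 below are the p53 targets described here that hold a match, and Aen is described because it holds one. Capitals mark the 20 matching bases, on the strand of the gene.
Cdkn1a (chr17:29090908-29090967, plus strand): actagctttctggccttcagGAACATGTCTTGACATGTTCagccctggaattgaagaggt
Ccng1 (chr11:40755442-40755501, minus strand): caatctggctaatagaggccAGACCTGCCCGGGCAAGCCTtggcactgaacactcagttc
Rps27l (chr9:66946276-66946335, plus strand): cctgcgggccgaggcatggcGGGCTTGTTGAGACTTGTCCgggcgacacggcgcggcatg
Bbc3 (chr7:16309466-16309525, plus strand): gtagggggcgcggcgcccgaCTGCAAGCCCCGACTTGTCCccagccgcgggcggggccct
Aen (chr7:78895917-78895976, plus strand): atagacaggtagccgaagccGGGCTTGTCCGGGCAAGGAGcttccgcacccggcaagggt
The match lay 51 bases before an annotated start of Cdkn1a, 195 before that of Ccng1, 117 before Rps27l, 97 before Bbc3 and 121 before Aen. Over all 190 tested genes with a match, 105 (55.3%) were lower and 20 higher after siRpl11, and 44.1% of tested genes without one were lower. Among the 179 outside the p53 list, 95 (53.1%) were lower. A match is a string of letters and not a measured binding site.

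Cdkn1a encodes p21, an inhibitor of cyclin-dependent kinases. It stood at 52.1, 55.7 and 58.2 FPKM in siRpl11, 116, 113 and 133 in siRpl14, 126, 132 and 146 in siRpl18 and 121, 109 and 136 in siRpl23. The siRpl11 libraries were lowest in both tables, and the log2 difference was -1.13 ± 0.05 (SE, adjusted p = 4.5e-07). For reference, siNT was at 52.5, 48.3 and 42.7 FPKM. Ccng1, which encodes cyclin G1, stood at 95.4, 93.7 and 90.9 FPKM in siRpl11, 169.5, 175 and 202 in siRpl14, 163, 169.8 and 173 in siRpl18 and 189.8, 188 and 202 in siRpl23. Its difference was -0.89 ± 0.03 (SE, adjusted p = 1.9e-07), again without overlap. Bbc3 encodes the pro-apoptotic protein Puma and was at 26.4, 26.0 and 34.8 FPKM in siRpl11, 34.0, 30.5 and 47.9 in siRpl14, 41.5, 43.3 and 58.4 in siRpl18 and 38.5, 37.3 and 53.6 in siRpl23. Its difference was -0.49 ± 0.05 (SE, adjusted p = 3.2e-05). Zmat3, an RNA-binding zinc finger protein, had a mean of 40.9 FPKM against 55.3, 67.1 and 58.0 in siRpl14, siRpl18 and siRpl23, a difference of -0.54 ± 0.05 (SE, adjusted p = 2.0e-05).

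The p53 targets with the largest differences were Sfn, Perp and Dcxr. Sfn encodes 14-3-3 sigma, which holds cells before mitosis, and stood at 6.87, 6.52 and 7.88 FPKM in siRpl11, 39.3, 39.99 and 57.3 in siRpl14, 34.8, 38.0 and 56.5 in siRpl18 and 47.6, 45.5 and 70.8 in siRpl23. Perp encodes a membrane protein of desmosomes tied to p53-dependent death, and stood at 41.7, 41.6 and 29.5 FPKM in siRpl11, 163, 169 and 196 in siRpl14, 226, 259 and 238 in siRpl18 and 196, 186 and 193 in siRpl23. Dcxr, a sugar and dicarbonyl reductase, stood at 2.63, 2.78 and 2.31 FPKM in siRpl11, 14.4, 12.99 and 16.7 in siRpl14, 12.2, 12.7 and 12.5 in siRpl18 and 11.7, 11.3 and 12.9 in siRpl23. The log2 differences were -2.44 ± 0.04, -2.21 ± 0.05 and -1.87 ± 0.05 (SE), with adjusted p of 2.5e-08, 5.3e-08 and 8.3e-08. All 3 were apart from every other library. Perp was at 9.03, 9.53 and 6.63 FPKM in siNT, under all knockdown libraries.

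Some p53 targets differed little. Bax, the pore-forming pro-apoptotic protein, stood at 247, 261 and 352 FPKM in siRpl11, 292, 279 and 427 in siRpl14, 284, 298 and 401 in siRpl18 and 284, 286 and 395 in siRpl23, a difference of -0.17 ± 0.04 (SE, adjusted p = 0.0036); under median-ratio scaling it was 0.00, and without siRpl11 replicate 1 it was -0.14 and did not pass the test. Aen, an apoptosis-enhancing nuclease, had a difference of -0.13 ± 0.04 (SE, adjusted p = 0.024), which turned to 0.05 under median-ratio scaling, and it did not pass the test without siRpl11 replicate 1 (-0.12), without siRpl11 replicate 2 (-0.13) or with siRpl18 left out of the comparator mean (-0.06). Rps27l, a p53-induced paralog of a 40S protein, stood at 963, 927 and 1060.1 FPKM in siRpl11, 949, 955 and 1396 in siRpl14, 975, 1045 and 1707 in siRpl18 and 1031, 1040.3 and 1564 in siRpl23. Its difference of -0.08 ± 0.04 (SE, adjusted p = 0.13) did not pass the test and turned to 0.10 under median-ratio scaling. It was called at -0.30 under quantile normalization and at -0.24 in the fit of all 12 libraries. The site shown for Cdkn1a, for Ccng1 and for Rps27l each had 1 mismatch.

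Trp53 itself, the gene for p53, went the other way from its targets. Its mRNA stood at 545, 539.7 and 602 FPKM in siRpl11, 306, 302 and 369 in siRpl14, 359, 359 and 412 in siRpl18 and 324, 309 and 375 in siRpl23, highest in siRpl11 in both tables, a difference of 0.73 ± 0.03 (SE, adjusted p = 5.9e-07). In siNT it was at 189, 182 and 223 FPKM. Mdm2, the p53 ligase and itself a p53 target, stood at 147, 139 and 134 FPKM in siRpl11, 277, 274 and 287 in siRpl14, 375, 370.1 and 337 in siRpl18 and 362, 338 and 335 in siRpl23. Its siRpl11 libraries were lowest, with a difference of -1.20 ± 0.04 (SE, adjusted p = 1.2e-07), and lay above siNT (42.0, 41.2 and 36.3 FPKM). Ppm1d, the phosphatase Wip1 that also damps p53, differed by -0.30 ± 0.05 (SE, adjusted p = 5.9e-04). Mdm4, a partner of Mdm2, differed by 0.08 ± 0.06 (SE, adjusted p = 0.27) and did not pass the test; under median-ratio scaling it was 0.26 and did. Chek1, a checkpoint kinase, was higher, with a log2 difference of 0.76, and Cdkn2a, the Ink4a and Arf locus, was lower, with a log2 difference of -0.84. Of the 21 genes of p53 and its regulators, 7 were higher, 6 lower and 8 did not pass the test, 33.3% higher and 28.6% lower, beside 18.4% and 44.5% of all genes; under quantile normalization 12 were higher and 5 lower, and under median-ratio scaling 13 and 4.

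**Figure D3:**
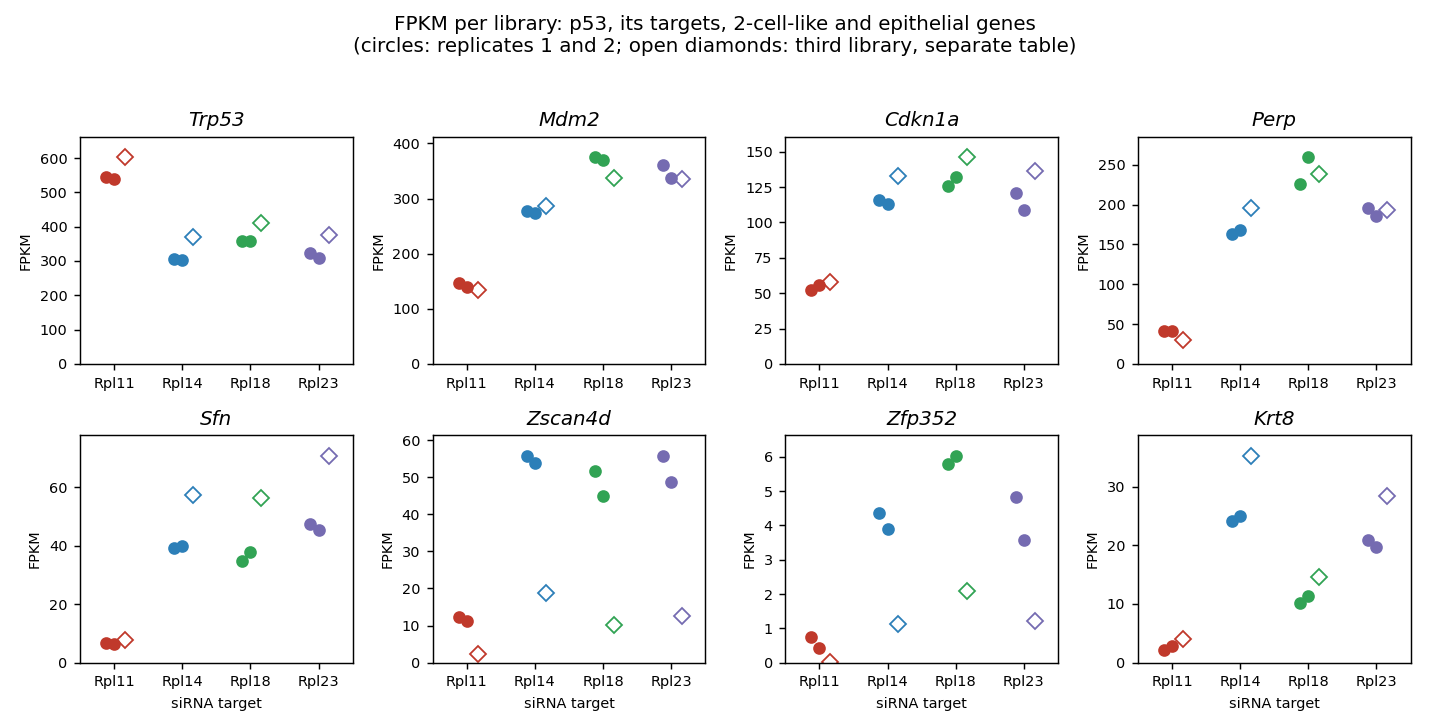
FPKM (y axis) of Trp53, its targets Mdm2, Cdkn1a, Perp and Sfn, the 2-cell-like genes Zscan4d and Zfp352 and the keratin gene Krt8, by siRNA target (x axis). Circles are replicates 1 and 2 and open diamonds the third library from the separate table; siRpl11 is highest for Trp53 and lowest for the other 7 genes in both tables.

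Genes of the 2-cell-like state stood lower after siRpl11 than after the other knockdowns. Of 44 listed, 36 were in the tables and 30 passed the filter. Of these, 10 were under 1 FPKM in a siRpl11 library and passed with the help of the other groups, so their lower level was built into the filter. The 6 that did not pass were not tested. The other 20 were at 1 FPKM or more in both siRpl11 libraries of the first table, and all 20 were called lower, where 44.5% of all genes were. The median over the 30 was -1.80, and -1.47 in the third libraries, and is given as a description. In bulk RNA, fewer cells in this state and less RNA per cell cannot be told apart.

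Zscan4d, a zinc finger gene of the cluster that marks the state, stood at 12.3, 11.1 and 2.30 FPKM in siRpl11, 55.7, 53.9 and 18.8 in siRpl14, 51.8, 45.0 and 10.2 in siRpl18 and 55.7, 48.7 and 12.6 in siRpl23. Its difference was -2.05 ± 0.07 (SE, adjusted p = 1.5e-07), and siRpl11 was lowest in both tables, also below siNT (21.9, 23.9 and 4.82 FPKM). All libraries of the third table were lower for this gene than the libraries of the same group in the first. Zfp352, another zinc finger gene of the 2-cell embryo, stood at 0.740, 0.424 and 0.0282 FPKM in siRpl11, 4.36, 3.89 and 1.12 in siRpl14, 5.81, 6.02 and 2.08 in siRpl18 and 4.84, 3.59 and 1.21 in siRpl23. Dux, the homeobox factor that starts the program, was low throughout, at 0.535, 0.641 and 0.344 FPKM in siRpl11, 1.46, 1.62 and 0.587 in siRpl14, 1.91, 1.77 and 0.603 in siRpl18 and 1.38, 1.57 and 0.866 in siRpl23. Its difference was -0.72. Tdpoz3, of a BTB domain family, stood at 0.679, 0.959 and 0.305 FPKM in siRpl11, 8.75, 8.31 and 3.66 in siRpl14, 18.4, 15.0 and 3.28 in siRpl18 and 12.3, 11.8 and 2.41 in siRpl23. Usp17le, a deubiquitinase of the Dub family, stood at 4.94, 5.53 and 1.07 FPKM in siRpl11, 37.5, 40.1 and 11.4 in siRpl14, 26.6, 28.3 and 7.53 in siRpl18 and 31.1, 28.0 and 7.49 in siRpl23. The Tdpoz3 difference was -2.84, that of Usp17le -2.39 ± 0.06 (SE, adjusted p = 5.5e-08) and that of Usp17lb -2.38 ± 0.08 (SE, adjusted p = 1.7e-07). Zfp352, Dux and Tdpoz3 were under 1 FPKM in every siRpl11 library and passed the filter through the other groups. Their lower level was therefore built into the filter, and their values are given as a description. Zscan4, Tdpoz and Usp17l genes are near-identical copies, so the share of reads given to each is uncertain.

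Among 28 regulators of that state, 14 were higher and 6 lower, 50% higher and 21.4% lower, beside 18.4% and 44.5% of all genes; 18 and 3 under quantile normalization, and 22 and 1 under median-ratio scaling. The count of lower members was 3 without siRpl11 replicate 1 or siRpl14 replicate 1, and 2 without siRpl11 replicate 2. Dppa3, a maternal factor that protects the genome from demethylation, stood at 15.2, 14.9 and 7.76 FPKM in siRpl11, 8.40, 9.03 and 6.91 in siRpl14, 7.31, 5.48 and 2.53 in siRpl18 and 8.21, 7.59 and 6.34 in siRpl23, a difference of 0.90 ± 0.09 (SE, adjusted p = 4.5e-05). Trim28, a corepressor that keeps transposons and 2-cell genes silent, differed by 0.35 ± 0.04 (SE, adjusted p = 1.2e-04). Dppa2 and Dppa4, a pair of activators of Dux, differed by 0.30 ± 0.04 (SE, adjusted p = 1.4e-04) and 0.17 ± 0.03 (SE, adjusted p = 0.0012). These 4 were all higher after siRpl11 while Zscan4d was lower. Dux was lower too, but its lower level was built into the filter.

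Krt8, Krt18, Krt19 and Gata3, all on the trophectoderm list, stood lower. Of 23 listed trophectoderm genes, 20 passed the filter, with 14 lower and 2 higher (median -0.61). Of these, 7 were under 1 FPKM in a siRpl11 library of the first table, where a member can pass with the help of the other groups. Of the other 13, 7 were lower and 2 higher. That share lower is not far from the 44.5% of all genes, so the list's count is not read as a result. For the 20, under quantile normalization 6 were higher and 11 lower, and under median-ratio scaling 4 and 13 (median -0.33 under quantile normalization), and 1 was higher without siRpl11 replicate 1, or with siRpl18 out of the comparator mean, and 4 were higher with siRpl14 out of the comparator mean. Krt8 and Krt18 encode the paired keratins of simple epithelia. Krt8 stood at 2.14, 2.85 and 4.02 FPKM in siRpl11, 24.2, 25.0 and 35.2 in siRpl14, 10.1, 11.3 and 14.6 in siRpl18 and 20.9, 19.8 and 28.3 in siRpl23, a difference of -2.42 ± 0.08 (SE, adjusted p = 1.3e-07). Krt18 stood at 3.17, 3.76 and 3.18 FPKM in siRpl11, 15.2, 16.6 and 20.6 in siRpl14, 7.90, 9.27 and 9.59 in siRpl18 and 16.01, 15.1 and 16.5 in siRpl23, a difference of -1.64 ± 0.08 (SE, adjusted p = 6.9e-07). For both genes the siRpl11 libraries were lowest and siRpl18 lay below siRpl14 and siRpl23. Krt19 had a mean of 3.25 FPKM against 17.6, 16.1 and 16.8 in siRpl14, siRpl18 and siRpl23, a difference of -2.08 ± 0.12 (SE, adjusted p = 2.3e-06). Gata3 and Cdx2, transcription factors of the trophectoderm, were low in all groups. Gata3 was at 1.20, 0.949 and 1.48 FPKM in siRpl11, 3.68, 3.02 and 2.49 in siRpl14, 4.66, 4.93 and 2.92 in siRpl18 and 4.204, 4.26 and 3.59 in siRpl23. Cdx2 was at 0.173, 0.149 and 0.0787 FPKM in siRpl11, 1.54, 2.12 and 1.98 in siRpl14, 0.823, 0.879 and 0.966 in siRpl18 and 1.500, 1.09 and 1.10 in siRpl23. Their differences were -1.29 and -0.98. Hand1, a factor of trophoblast and mesoderm, was at 0.239, 0.304 and 0.671 FPKM in siRpl11 and differed by -1.77. Cdx2 and Hand1 were under 1 FPKM in every siRpl11 library and passed the filter through the other groups. Their lower level was therefore built into the filter, and their differences are given as a description. The summed FPKM of 5 trophectoderm markers (Cdx2, Gata3, Elf5, Krt8 and Krt18) was 6.69 to 7.72 in siRpl11 and 23.5 to 46.8 in the other first-table libraries (8.75 against 28.1 to 60.3 in the third). Krt8 and Krt18 made up most of each sum, and Elf5 was at or under 0.0338 FPKM in every knockdown library. The sum therefore mainly repeats the 2 keratins above. The part of trophectoderm-like cells in these differences was not tested.

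Targets of YAP and TEAD, which read cell shape and contact, were mostly lower. Of 23 listed, 19 passed the filter, 15 were lower and 2 higher (median -0.54), with all 19 at 1 FPKM or more in both siRpl11 libraries. These are 78.9% lower and 10.5% higher, beside 44.5% and 18.4% of all genes; under quantile normalization 4 were higher and 13 lower, and under median-ratio scaling 3 and 13 (median -0.29 under quantile normalization). Of the members, 1 was higher without siRpl11 replicate 1, siRpl14 replicate 2, siRpl18 replicate 1, siRpl18 replicate 2 or siRpl23 replicate 2, or with siRpl18 or siRpl23 out of the comparator mean. Cyr61 and Ctgf encode matrix proteins of the CCN family. Cyr61 stood at 17.0, 16.7 and 19.9 FPKM in siRpl11, 64.4, 68.3 and 77.0 in siRpl14, 56.1, 62.2 and 62.4 in siRpl18 and 72.1, 69.8 and 79.8 in siRpl23, a difference of -1.89 ± 0.04 (SE, adjusted p = 5.3e-08). Ctgf stood at 18.9, 15.98 and 21.1 FPKM in siRpl11, 42.5, 44.2 and 49.6 in siRpl14, 33.6, 34.0 and 29.6 in siRpl18 and 36.1, 34.2 and 37.9 in siRpl23, a difference of -1.06 ± 0.06 (SE, adjusted p = 1.7e-06). Both were lowest in siRpl11 in both tables. Myof, the membrane repair protein myoferlin, differed by -1.82 ± 0.04 (SE, adjusted p = 5.8e-08), and Amotl2, a binding partner of YAP, by -0.54 ± 0.04 (SE, adjusted p = 5.2e-06).

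Several Wnt pathway genes were lower. Of 20 listed, 12 passed the filter, and 8 of these were lower and 2 higher (median -0.82); of the 10 at 1 FPKM or more in both siRpl11 libraries, 6 were lower and 2 higher, where 44.5% of all genes were lower and 18.4% higher. For the 12, under quantile normalization 3 were higher and 8 lower, and under median-ratio scaling 3 and 8. Sp5, a direct Wnt target, was at 0.435, 0.501 and 0.365 FPKM in siRpl11, 4.60, 4.80 and 10.3 in siRpl14, 2.25, 2.23 and 3.25 in siRpl18 and 3.44, 2.97 and 4.94 in siRpl23. It passed the filter through the other groups, so its lower level was built into the filter. Axin2, the feedback inhibitor that Wnt induces, was at 2.65, 2.91 and 3.12 FPKM in siRpl11, 6.41, 6.72 and 6.33 in siRpl14, 5.62, 5.49 and 5.45 in siRpl18 and 5.86, 5.51 and 5.97 in siRpl23, a difference of -0.87 ± 0.06 (SE, adjusted p = 4.0e-06). Tcf7, a DNA-binding partner of beta-catenin, differed by -0.77 ± 0.04 (SE, adjusted p = 1.3e-06). The ligand genes Wnt3 and Wnt6 differed by -1.27 ± 0.08 (SE, adjusted p = 5.0e-06) and -1.40 ± 0.08 (SE, adjusted p = 1.9e-06), from a mean of 1.33 FPKM against 5.15, 4.31 and 4.43 for Wnt3 in siRpl14, siRpl18 and siRpl23. Tnfrsf19, a receptor gene, was higher by 0.49 ± 0.06 (SE, adjusted p = 2.2e-04). Lef1, another partner of beta-catenin, was higher: it stood at 21.6, 19.3 and 19.22 FPKM in siRpl11, 7.66, 7.37 and 6.10 in siRpl14, 11.98, 13.3 and 9.52 in siRpl18 and 10.02, 9.03 and 6.31 in siRpl23, a difference of 1.00 ± 0.06 (SE, adjusted p = 4.0e-06).

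Pluripotency genes split by class. Of 20 core pluripotency genes tested, 19 were higher and none lower (median 0.34, and 0.44 in the third libraries), where 18.4% of all genes were higher. Under quantile normalization 17 were higher and 0 lower. Lin28a, an RNA-binding protein that blocks the let-7 microRNA, stood at 292, 280.3 and 298 FPKM in siRpl11, 151, 149 and 147 in siRpl14, 118, 116 and 114 in siRpl18 and 145, 139 and 135 in siRpl23, a difference of 1.07 ± 0.03 (SE, adjusted p = 1.0e-07). Pou5f1 encodes Oct4, a factor that embryonic stem cells cannot lose, and stood at 1043, 1109.5 and 1490.3 FPKM in siRpl11, 745, 787 and 1078 in siRpl14, 737, 794 and 1083 in siRpl18 and 762, 782 and 1079.6 in siRpl23, a difference of 0.49 ± 0.05 (SE, adjusted p = 4.3e-05). Lin28a and Pou5f1 were highest in siRpl11 in both tables. Sall4, a zinc finger partner of Oct4, differed by 0.63 ± 0.04 (SE, adjusted p = 5.4e-06), Tcf7l1, a repressor of naive genes, by 1.06 ± 0.05 (SE, adjusted p = 5.2e-07), and Mycn by 0.75 ± 0.03 (SE, adjusted p = 2.8e-07). Sox2, the DNA-binding partner of Oct4, was at 276, 266 and 324 FPKM in siRpl11, 242, 233 and 298 in siRpl14, 277, 278 and 327 in siRpl18 and 251, 250.3 and 318 in siRpl23. Its groups overlapped, and its difference of 0.09 ± 0.03 (SE, adjusted p = 0.04) was 0.00 under quantile normalization and lost its call there and in 9 other alternatives.

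Most naive genes, which mark the ground state of the pre-implantation embryo, stood lower. Of 26 tested, 16 were lower and 6 higher (median -0.32), 61.5% lower and 23.1% higher, beside 44.5% and 18.4% of all genes; under quantile normalization 7 were higher and 15 lower, and under median-ratio scaling 10 and 14. Nanog stood at 189, 195 and 123 FPKM in siRpl11, 238, 248 and 175 in siRpl14, 257, 261 and 189.8 in siRpl18 and 249, 259 and 180.3 in siRpl23, a difference of -0.39 ± 0.03 (SE, adjusted p = 2.5e-05), and was lowest in siRpl11 in both tables. In siNT it was at 431, 446 and 293 FPKM. Esrrb, a nuclear receptor of the naive network, stood at 109.5, 112 and 109.8 FPKM in siRpl11, 167, 158 and 161 in siRpl14, 170.0, 170.2 and 183 in siRpl18 and 167, 167 and 174 in siRpl23, a difference of -0.59 ± 0.03 (SE, adjusted p = 1.7e-06). Klf5, a zinc finger factor, stood at 59.8, 59.2 and 68.6 FPKM in siRpl11, 101, 96.7 and 112 in siRpl14, 109, 106 and 116 in siRpl18 and 107, 107 and 121 in siRpl23, a difference of -0.80 ± 0.03 (SE, adjusted p = 2.7e-07). Klf4 differed by -0.45, Tbx3 by -0.31 and Manba, a lysosomal mannosidase used as a naive marker, by -0.87. Dppa3, described above, is also on this list and went the other way. Its difference of 0.90 was the largest of the list in either direction. Zfp42, also called Rex1, differed by -0.22 ± 0.05 (SE, adjusted p = 0.0033), which was -0.04 under median-ratio scaling and -0.17 without siRpl11 replicate 1, neither passing the test.

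Most formative and primed genes, which rise as cells leave the naive state, stood higher. Of 26 listed, 24 were tested, of which 15 were higher and 6 lower, the median was 0.54 (0.65 against siRpl14, 0.44 against siRpl18 and 0.54 against siRpl23), and it was 0.86 in the third libraries. These are 62.5% higher and 25% lower, beside 18.4% and 44.5% of all genes, and under quantile normalization 17 were higher and 5 lower, and under median-ratio scaling 15 and 3. As deposited, the 6 lower members reached -1.39, and the members named here are all among the 15 higher. Of the 24, 4 were under 1 FPKM in a siRpl11 library, and of the other 20, 15 were higher and 3 lower. Pim2 was put on this list with its level in these data known. Otx2, a homeobox factor that opens formative enhancers, stood at 78.0, 78.6 and 74.1 FPKM in siRpl11, 27.4, 28.6 and 23.1 in siRpl14, 47.3, 48.4 and 41.9 in siRpl18 and 36.1, 35.3 and 28.9 in siRpl23. It was highest in siRpl11 and next highest in siRpl18, with a difference of 1.09 ± 0.03 (SE, adjusted p = 9.6e-08), and siNT was at 9.03, 8.34 and 13.7 FPKM. Dnmt3b, a de novo DNA methyltransferase, stood at 55.7, 53.8 and 70.4 FPKM in siRpl11, 31.3, 30.0 and 34.3 in siRpl14, 21.7, 21.2 and 25.2 in siRpl18 and 27.9, 28.4 and 31.8 in siRpl23, a difference of 1.02 ± 0.03 (SE, adjusted p = 1.5e-07). Sall2, a zinc finger paralog of Sall4, stood at 24.0, 22.4 and 20.2 FPKM in siRpl11, 6.95, 6.81 and 6.95 in siRpl14, 7.75, 7.39 and 6.85 in siRpl18 and 8.15, 7.04 and 7.69 in siRpl23, a difference of 1.54 ± 0.06 (SE, adjusted p = 3.0e-07). Pou3f1, also called Oct6, differed by 0.42 ± 0.08 (SE, adjusted p = 0.0017). Fgf15, an early ligand of the neural and primed state, stood at 23.5, 22.0 and 18.6 FPKM in siRpl11, 5.92, 5.39 and 2.33 in siRpl14, 8.41, 8.72 and 5.34 in siRpl18 and 6.08, 6.81 and 2.87 in siRpl23, a difference of 1.61 ± 0.06 (SE, adjusted p = 2.2e-07). All 5 were apart from every other library, and the 3 single contrasts of Otx2 were 1.45 against siRpl14, 0.70 against siRpl18 and 1.11 against siRpl23.

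**Figure D4:**
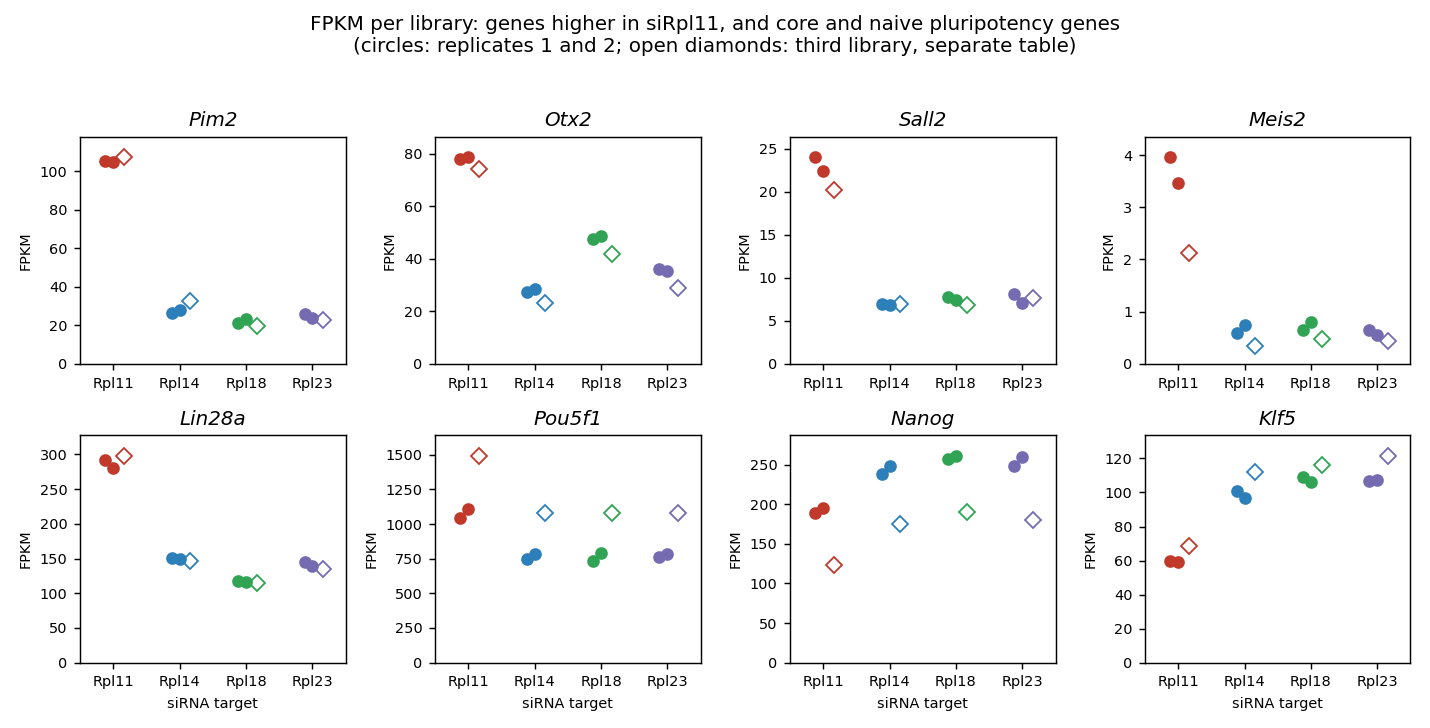
FPKM (y axis) of Pim2, Otx2, Sall2, Meis2, Lin28a, Pou5f1, Nanog and Klf5 by siRNA target (x axis). Circles are replicates 1 and 2 and open diamonds the third library from the separate table; siRpl11 is highest for the first 6 genes and lowest for Nanog and Klf5 in both tables.

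Among the 10 genes furthest above every other library were Pim2, Enpp2, Tspan8, Car14, Fgf15, Neurog3, Glod5, Sall2 and Meis2, with log2 differences from 2.04 to 1.50. Pim2, a kinase that promotes survival and translation, stood at 105, 105 and 107 FPKM in siRpl11, 26.6, 28.2 and 32.5 in siRpl14, 21.4, 23.5 and 19.7 in siRpl18 and 26.0, 23.9 and 22.7 in siRpl23. The siRpl11 libraries did not overlap another group. The difference was 2.04 ± 0.05 (SE, adjusted p = 5.3e-08), and 2.09 in the third libraries. In siNT it was at 10.7, 10.3 and 11.4 FPKM. Meis2, a homeobox factor, stood at 3.96, 3.47 and 2.12 FPKM in siRpl11, 0.598, 0.749 and 0.348 in siRpl14, 0.647, 0.800 and 0.478 in siRpl18 and 0.646, 0.555 and 0.430 in siRpl23, a difference of 1.50. Neurog3, a proneural factor, was at 3.39, 4.04 and 1.498 FPKM in siRpl11, 0.658, 0.586 and 0.0652 in siRpl14, 0.847, 0.329 and 0.291 in siRpl18 and 0.657, 0.280 and 0 in siRpl23. Enpp2, the lysophospholipase autotaxin, was at 3.39, 3.27 and 3.10 FPKM in siRpl11, 0.412, 0.303 and 0.435 in siRpl14, 0.260, 0.198 and 0.173 in siRpl18 and 0.396, 0.338 and 0.245 in siRpl23. Tspan8, a tetraspanin, differed by 1.63, Car14, a carbonic anhydrase, by 1.62 and Glod5 by 1.54. Pim2 had the highest FPKM of the 10, and Enpp2, Car14, Meis2 and Neurog3 were at or under 1.34 FPKM in the other first-table libraries. Enpp2, Meis2 and Neurog3 were under 1 FPKM in every library of the other knockdowns and passed the filter through siRpl11 alone. Their higher level was therefore built into the filter, and their values are given as a description.

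The 10 genes furthest below every other library were Sct, Tdpoz3, Cpz, Slc4a11, Fgfbp1, Matn1, Sfn, Krt8, LOC105246046 and Usp17le, from -3.04 to -2.39. Tdpoz3 passed the filter through the other groups, as described above. Sct, the hormone secretin, stood at 2.03, 2.24 and 2.18 FPKM in siRpl11, 29.6, 33.5 and 45.9 in siRpl14, 16.1, 19.4 and 17.2 in siRpl18 and 28.3, 26.3 and 32.7 in siRpl23, a difference of -3.04 ± 0.08 (SE, adjusted p = 6.1e-08). For reference, siNT was at 1.60, 2.29 and 0.829 FPKM. Cpz, a carboxypeptidase that binds Wnt proteins, stood at 1.46, 1.52 and 1.40 FPKM in siRpl11, 15.2, 15.1 and 23.1 in siRpl14, 15.2, 14.5 and 15.5 in siRpl18 and 16.2, 13.7 and 22.3 in siRpl23. Slc4a11, a membrane transporter, stood at 8.68, 8.38 and 6.70 FPKM in siRpl11, 54.6, 52.7 and 51.1 in siRpl14, 62.5, 60.9 and 55.6 in siRpl18 and 62.4, 54.6 and 53.4 in siRpl23. For both genes the siRpl11 libraries were lowest in both tables. Fgfbp1, a carrier that frees fibroblast growth factors from the matrix, stood at 13.8, 14.6 and 17.6 FPKM in siRpl11, 98.4, 103 and 100.0 in siRpl14, 74.2, 83.1 and 63.2 in siRpl18 and 90.5, 87.0 and 81.4 in siRpl23. Matn1, the cartilage matrix protein matrilin, stood at 3.17, 2.40 and 2.58 FPKM in siRpl11, 19.0, 18.8 and 27.3 in siRpl14, 24.1, 23.8 and 28.6 in siRpl18 and 22.9, 19.17 and 29.4 in siRpl23. The differences of the last 4 were -2.68, -2.63, -2.56 and -2.56 on the log2 scale, with adjusted p of 5.3e-08, 2.5e-08, 2.5e-08 and 1.5e-07.

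Ribosomal protein mRNAs stood somewhat higher, and this turned on the scaling. Of 47 untargeted 60S genes tested, 40 were higher and 0 lower (median 0.24), where 18.4% of all genes were higher; under quantile normalization 18 were higher and 4 lower, and under median-ratio scaling 45 and 0 (median 0.03 under quantile normalization). Of these, 16 were higher without siRpl11 replicate 2, and 1 was lower with siRpl18 out of the comparator mean. Of 33 40S genes, 23 were higher and 0 lower (median 0.22); under quantile normalization 8 were higher and 8 lower, and 10 were higher without siRpl11 replicate 2, and 1 was lower without siRpl11 replicate 2. Rpl5, the partner of Rpl11 in the 5S particle, stood at 866, 956 and 855 FPKM in siRpl11, 668, 764 and 732 in siRpl14, 677, 775 and 705 in siRpl18 and 718, 741 and 714 in siRpl23, a difference of 0.33 ± 0.07 (SE, adjusted p = 0.0037) that did not pass the test without siRpl11 replicate 2 (0.26). Rpl26, a 60S protein that also binds Trp53 mRNA, stood at 1036, 1142 and 425 FPKM in siRpl11, 562, 682 and 269.7 in siRpl14, 544, 640.1 and 227 in siRpl18 and 553, 686 and 252 in siRpl23, a difference of 0.84 ± 0.11 (SE, adjusted p = 2.0e-04), and was highest in siRpl11 in both tables. Rpl30 and Rplp2 differed by 0.52 ± 0.06 (SE, adjusted p = 1.0e-04) and 0.44 ± 0.05 (SE, adjusted p = 8.2e-05). Rpl3 differed by -0.09 ± 0.05 (SE, adjusted p = 0.14) and did not pass the test; it was -0.28 and called under quantile normalization and 0.08 under median-ratio scaling. Among 40S genes Rps2 differed by 0.59 ± 0.05 (SE, adjusted p = 3.2e-05) and Rpsa by 0.57 ± 0.07 (SE, adjusted p = 2.2e-04), while Rps19, at 0.05 ± 0.05 (SE, adjusted p = 0.42), did not pass the test and was -0.21 and called under quantile normalization. In the third libraries the medians were smaller, at 0.14 for the 60S genes and 0.12 for the 40S genes. Ribosomal protein genes have many processed copies, so their shares of reads are uncertain.

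Most genes that build ribosomes were higher under all 3 scalings. Of 52 tested, 36 were higher and 4 lower (median 0.27, and 0.29 in the third libraries), 69.2% higher and 7.69% lower, beside 18.4% and 44.5% of all genes, and under quantile normalization 37 were higher and 3 lower, and under median-ratio scaling 48 and 1. Of the members, 2 were lower without siRpl11 replicate 1, siRpl11 replicate 2, siRpl14 replicate 2, siRpl18 replicate 2 or siRpl23 replicate 1, or with siRpl14 out of the comparator mean. Nop58 and Nop56, the core proteins of box C/D small nucleolar particles, differed by 0.64 ± 0.04 (SE, adjusted p = 5.2e-06) and 0.58 ± 0.05 (SE, adjusted p = 1.6e-05). Npm1, a nucleolar chaperone, stood at 2573, 2385 and 3214 FPKM in siRpl11, 1526, 1501 and 1946 in siRpl14, 1607, 1596 and 2297 in siRpl18 and 1732, 1626 and 2308 in siRpl23, a difference of 0.63 ± 0.05 (SE, adjusted p = 1.2e-05). Ncl (nucleolin) differed by 0.33 ± 0.03 (SE, adjusted p = 5.3e-05), Fbl (fibrillarin, which methylates ribosomal RNA) by 0.24 ± 0.03 (SE, adjusted p = 1.2e-04) and Polr1a (the large subunit of RNA polymerase I) by 0.29 ± 0.03 (SE, adjusted p = 5.3e-05). Rpf2 and Rrs1, which carry the 5S particle into the 60S precursor, were also higher. Rrs1 stood at 80.7, 80.1 and 98.3 FPKM in siRpl11, 57.4, 56.9 and 78.2 in siRpl14, 59.9, 62.9 and 75.0 in siRpl18 and 61.4, 58.2 and 69.9 in siRpl23, a difference of 0.43 ± 0.03 (SE, adjusted p = 1.4e-05), and Rpf2 differed by 0.27 ± 0.04 (SE, adjusted p = 2.9e-04). Of 14 hosts of small nucleolar RNAs, 8 were higher and 1 lower, 57.1% higher and 7.14% lower, beside 18.4% and 44.5% of all genes. Under quantile normalization 12 hosts were higher and 0 lower, and under median-ratio scaling 11 and 0. Snhg1 stood at 416, 404 and 279 FPKM in siRpl11, 213, 242 and 151 in siRpl14, 256, 276 and 195 in siRpl18 and 240.3, 262 and 139.5 in siRpl23, a difference of 0.73 ± 0.06 (SE, adjusted p = 1.4e-05). Of 30 translation factors, 17 were higher and 4 lower, 56.7% higher and 13.3% lower, beside 18.4% and 44.5% of all genes; under quantile normalization 12 were higher and 8 lower, and under median-ratio scaling 24 and 0, and 2 were lower without siRpl11 replicate 1. The median of the translation factors was 0.18, and 0.08 in the third libraries. Eif4b and Eif3e, both initiation factors, differed by 0.47 and 0.52. The elongation factor Eef2, at 0.10 ± 0.04 (SE, adjusted p = 0.08), did not pass the test and was -0.06 under quantile normalization.

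Stress genes gave a mixed picture. ATF4 drives the response to amino acid shortage; of 41 of its targets tested, 24 were lower and 4 higher (median -0.18), a share lower of 58.5% beside 44.5% of all genes, and under quantile normalization 7 were higher and 15 lower, and under median-ratio scaling 11 and 15. Asns, which makes asparagine, stood at 76.0, 81.7 and 72.4 FPKM in siRpl11, 121, 131 and 116 in siRpl14, 98.1, 105 and 93.3 in siRpl18 and 113, 125 and 104 in siRpl23, a difference of -0.54 ± 0.05 (SE, adjusted p = 4.4e-05). Ddit3, the stress factor Chop, stood at 21.8, 23.5 and 20.5 FPKM in siRpl11, 35.7, 37.5 and 40.2 in siRpl14, 50.9, 58.8 and 50.7 in siRpl18 and 40.9, 42.1 and 45.2 in siRpl23, a difference of -0.92 ± 0.06 (SE, adjusted p = 3.7e-06). Trib3, a pseudokinase, differed by -0.72, and the factors Atf5 and Atf3 by -1.34 and -1.72. Atf3 was at 0.769, 0.649 and 0.830 FPKM in siRpl11 and passed the filter through the other groups, so its lower level was built into the filter. Of the 40 ATF4 targets at 1 FPKM or more in both siRpl11 libraries of the first table, 23 were lower and 4 higher. Ddit4, an inhibitor of mTORC1 that is on both the ATF4 and the p53 list, stood at 135, 137 and 124 FPKM in siRpl11, 312, 297 and 288 in siRpl14, 314, 331 and 276 in siRpl18 and 325, 317 and 295 in siRpl23, a difference of -1.21 ± 0.04 (SE, adjusted p = 9.9e-08). Psat1, which works in serine synthesis, was higher, at 0.24 ± 0.05 (SE, adjusted p = 0.0033). Phgdh, the first enzyme of that pathway, was at -0.20 ± 0.05 (SE, adjusted p = 0.0089), and was not called under quantile normalization (-0.12), under median-ratio scaling (-0.03) or without siRpl11 replicate 1 (-0.16). Of 24 genes of the unfolded protein response, 16 were lower and 0 higher (median -0.22), 66.7% lower and 0% higher, beside 44.5% and 18.4% of all genes; under quantile normalization 3 were higher and 11 lower, and under median-ratio scaling 6 and 10. Hspa5, the chaperone BiP, stood at 153, 154 and 119.8 FPKM in siRpl11, 192, 202 and 176 in siRpl14, 193, 203 and 190.2 in siRpl18 and 189, 198 and 163 in siRpl23, a difference of -0.35 ± 0.04 (SE, adjusted p = 7.1e-05), and Xbp1 differed by -0.46.

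Genes fed by FGF and ERK signalling were split. Of 18 tested, 9 were lower and 2 higher (median -0.18); under quantile normalization 3 were higher and 6 lower, and under median-ratio scaling 5 and 5, and 4 were higher with siRpl18 out of the comparator mean. Phlda1 stood at 5.57, 5.67 and 11.2 FPKM in siRpl11, 24.6, 22.1 and 38.4 in siRpl14, 27.1, 26.4 and 40.7 in siRpl18 and 32.6, 28.6 and 50.6 in siRpl23, a difference of -2.07 ± 0.06 (SE, adjusted p = 8.6e-08). Fosl1 and Fos, of the AP-1 family, differed by -1.50 ± 0.06 (SE, adjusted p = 3.9e-07) and -1.03 ± 0.07 (SE, adjusted p = 7.1e-06). Dusp6, a phosphatase that acts on ERK, was higher, at 0.21 ± 0.04 (SE, adjusted p = 0.0012). Of 31 glycolysis and hypoxia-inducible genes, 14 were lower and 5 higher; under quantile normalization 5 were higher and 16 lower, and under median-ratio scaling 9 and 9. Of these, 3 were higher without siRpl11 replicate 1, siRpl11 replicate 2 or siRpl14 replicate 1, or with siRpl23 out of the comparator mean, and 9 were lower without siRpl11 replicate 1. Slc2a1, the glucose transporter Glut1, stood at 322, 342 and 314 FPKM in siRpl11, 499, 502 and 443 in siRpl14, 480.0, 517 and 446 in siRpl18 and 452, 486 and 458 in siRpl23, a difference of -0.56 ± 0.05 (SE, adjusted p = 1.7e-05), and Pfkfb4 differed by -1.48. Of 32 genes of cholesterol and fatty acid synthesis, 12 were lower and 3 higher, but under quantile normalization 13 were higher and 6 lower, and under median-ratio scaling 11 and 3, and 1 was higher without siRpl11 replicate 1 or siRpl11 replicate 2, and 5 were higher without siRpl18 replicate 2, or with siRpl23 out of the comparator mean. The share lower was 50% for the FGF and ERK list, 45.2% for glycolysis and 37.5% for lipid synthesis, beside 44.5% of all genes, so none of these is a result about the list.

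More cell cycle genes were higher than lower, by small amounts. Of 31 genes of DNA replication, 17 were higher and 5 lower (median 0.12), 54.8% higher and 16.1% lower, beside 18.4% and 44.5% of all genes; under quantile normalization 19 were higher and 4 lower, and under median-ratio scaling 24 and 3. Pola1, the catalytic subunit of DNA polymerase alpha, stood at 27.7, 27.3 and 33.4 FPKM in siRpl11, 16.04, 15.3 and 22.2 in siRpl14, 17.3, 18.1 and 26.7 in siRpl18 and 18.2, 19.0 and 24.8 in siRpl23, a difference of 0.64 ± 0.04 (SE, adjusted p = 3.2e-06). Mcm5 and Mcm2, of the replicative helicase, differed by 0.45 and 0.25. Other replication genes went the other way. E2f2, the lowest of the list, differed by -0.59, and Ccne1 by -0.18, which lost its call under median-ratio scaling. Of 32 genes of mitosis, 15 were higher and 3 lower (median 0.07), 46.9% higher and 9.38% lower, beside 18.4% and 44.5% of all genes; under quantile normalization 18 were higher and 2 lower, and under median-ratio scaling 26 and 0. Of the mitosis genes, 0 were lower without siRpl11 replicate 1, and 1 was lower without siRpl11 replicate 2, or with siRpl18 out of the comparator mean, and 7 were lower with siRpl14 out of the comparator mean. Cenpf, a kinetochore protein, differed by 0.43 and the kinase gene Plk1 by 0.27. The kinase gene Cdk1 was lower, at -0.12, and lost its call under quantile normalization and under median-ratio scaling.

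Other lineage lists held few expressed genes. Of 23 mesoderm genes listed, 10 were tested and 7 were lower and 0 higher, but 3 of them were under 1 FPKM in a siRpl11 library and passed with the help of the other groups. Of the other 7, 5 were lower, where 44.5% of all genes were, and for the 10 tested, under quantile normalization 2 were higher and 6 lower, and under median-ratio scaling 0 and 7. Of 23 primitive endoderm genes listed, 17 were tested and 10 were lower and 1 higher; under quantile normalization 2 were higher and 6 lower, and under median-ratio scaling 1 and 8. As deposited, 58.8% were lower and 5.88% higher, beside 44.5% and 18.4% of all genes. Here 7 were under 1 FPKM in a siRpl11 library and passed with the help of the other groups, and of the other 10, 8 were lower. The single higher gene was Lrp2, an endocytic receptor, at 21.9, 21.3 and 18.3 FPKM in siRpl11, 9.83, 9.86 and 7.04 in siRpl14, 9.47, 9.26 and 6.26 in siRpl18 and 9.86, 9.91 and 6.04 in siRpl23. The summed FPKM of 5 primitive endoderm markers was 4.51 to 4.89 in siRpl11 and 5.26 to 6.66 in the other first-table libraries. Of 26 neural transcription factors and markers listed, 14 were tested and 8 were lower and 3 higher. These are 57.1% lower and 21.4% higher, beside 44.5% and 18.4% of all genes. Of the 13 at 1 FPKM or more in both siRpl11 libraries of the first table, 7 were lower and 3 higher. Neurog3, 1 of the 3 higher, passed the filter through siRpl11 alone, so its higher level was built into the filter. For the 14, under quantile normalization 5 were higher and 7 lower, and under median-ratio scaling 4 and 6 (median -0.04 under quantile normalization). Neurod1 stood at 14.0, 14.1 and 11.4 FPKM in siRpl11, 30.5, 31.1 and 37.1 in siRpl14, 41.2, 46.3 and 37.9 in siRpl18 and 40.8, 36.3 and 41.0 in siRpl23, a difference of -1.34 ± 0.06 (SE, adjusted p = 4.5e-07), while Pax6 stood at 4.95, 6.11 and 4.195 FPKM in siRpl11, 1.05, 1.47 and 1.11 in siRpl14, 1.52, 1.79 and 1.27 in siRpl18 and 2.02, 1.499 and 0.881 in siRpl23, a difference of 1.36 ± 0.11 (SE, adjusted p = 1.8e-05). Of 22 germline genes, 6 were higher and 11 lower, 27.3% higher and 50% lower, beside 18.4% and 44.5% of all genes, but under quantile normalization 11 were higher and 3 lower, and under median-ratio scaling 8 and 5, and 6 were lower without siRpl11 replicate 2. Of the 18 germline genes at 1 FPKM or more in both siRpl11 libraries of the first table, 6 were higher and 9 lower. Stra8, the factor of meiotic entry, differed by 0.92 ± 0.08 (SE, adjusted p = 2.7e-05). Dazl and Ddx4 were lower, at -0.31 ± 0.08 (SE, adjusted p = 0.010) and -0.26 ± 0.07 (SE, adjusted p = 0.0083). Neither was called under quantile normalization (-0.07 and 0.01) or under median-ratio scaling (-0.16 and -0.11). Of 12 Myc, Max and Mxd genes, 3 were higher and 3 lower, 25% higher and 25% lower, beside 18.4% and 44.5% of all genes. Under quantile normalization 4 were higher and 2 lower, and under median-ratio scaling 4 and 2. Mxd4, a repressor partner of Max, differed by -1.66 ± 0.06 (SE, adjusted p = 2.2e-07). Of 27 interferon-response genes listed, 12 were tested and 3 were higher and 5 lower, 25% higher and 41.7% lower, beside 18.4% and 44.5% of all genes. Of the 11 interferon genes at 1 FPKM or more in both siRpl11 libraries of the first table, 3 were higher and 4 lower. This list turned with the scaling: under quantile normalization 5 were higher and 2 lower, and under median-ratio scaling 6 and 4, and 5 were higher without siRpl18 replicate 2. Of 18 fibroblast and feeder genes listed, 5 were tested and 4 were lower and 1 higher, under each of the 3 scalings. As deposited, 44.5% of all genes were lower and 18.4% higher, and 1 of the 5 passed with the help of the other groups. Vim, the intermediate filament vimentin that stem cells also express, stood at 87.9, 90.5 and 148 FPKM in siRpl11, 187, 193 and 306 in siRpl14, 221, 241 and 330.1 in siRpl18 and 183, 183 and 269 in siRpl23, a difference of -1.16 ± 0.04 (SE, adjusted p = 1.6e-07). The plot of list medians sets the 29 lists side by side, from -1.80 for 2-cell-like genes to 0.54 for formative genes.

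**Figure D5:**
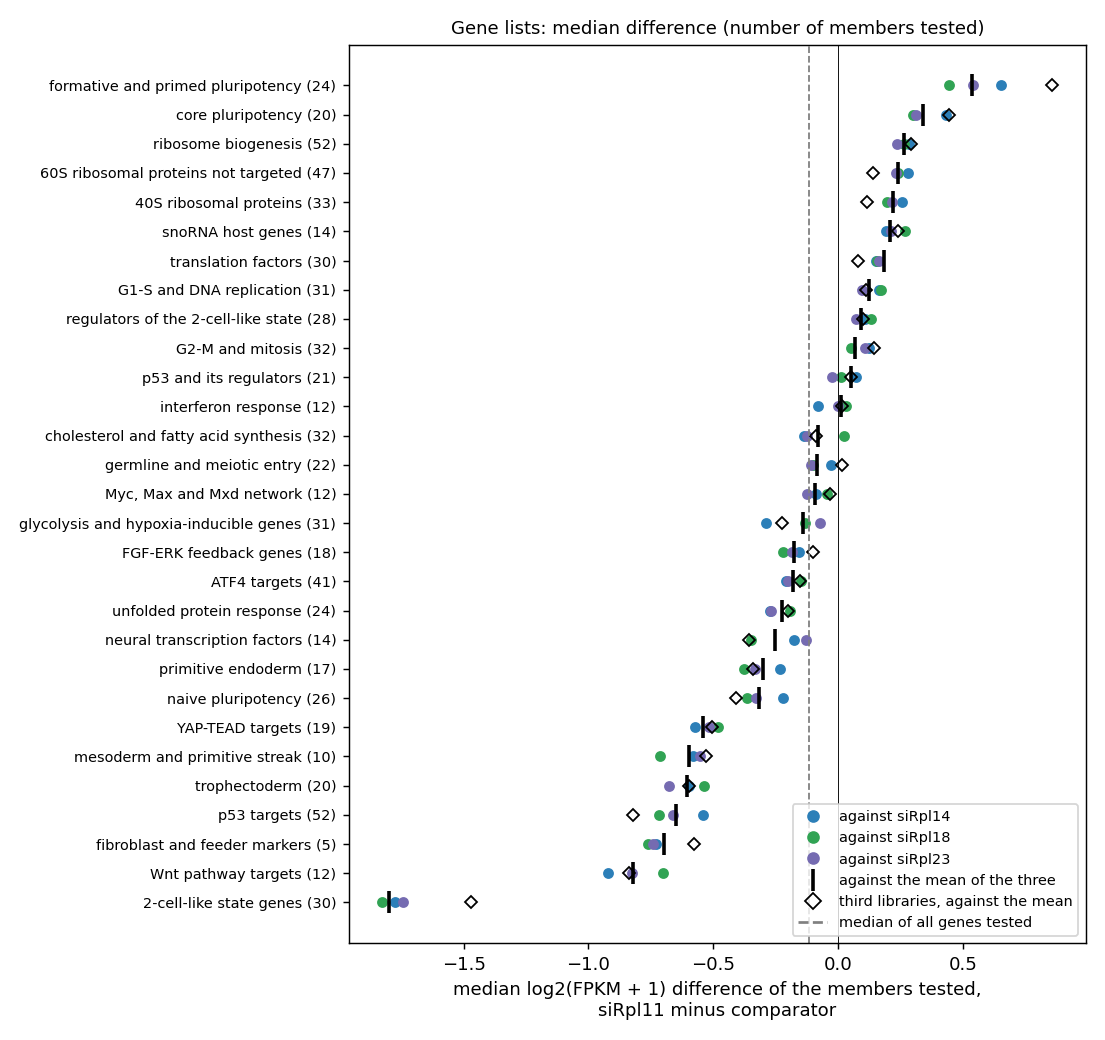
Median log2(FPKM + 1) difference (x axis) of the tested members of each of 29 gene lists (y axis, number tested in brackets). Bars are siRpl11 minus the mean of the other three, dots each single comparator, open diamonds the third libraries, and the dashed line the median of all genes at -0.12; formative genes (0.54) and core pluripotency genes (0.34) stand furthest right and 2-cell-like genes (-1.80) furthest left.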

How the data were processed

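Libraries of poly(A) RNA were made by a stranded kit, per the labels' protocols. The authors deposited FPKM values made with STAR and Cuffnorm against mm9 (per the submitters' processing notes). Their versions: not given in the sources used here. Replicates 1 and 2 lie in one table and the third libraries in another. Another 2 columns belong to no sample here and were not used. Libraries were grouped by title. FPKM is no count, so limma 3.58.1 (R 4.3.3, trend) was fitted to log2(FPKM + 1) of 8 libraries with 1 term per group and 4 residual degrees of freedom; fold changes of low genes are understated by the pseudocount of 1. The procedure was tested on simulated data. Genes at 1 FPKM or more in 2 of 12 libraries were kept: 188 had exactly 2 such libraries (median of mean FPKM 0.716) and 296, left out, exactly 1 (0.616). The third libraries gave direction and size only. The gene groups and lists were chosen with earlier results of these data known. Genes named are the 4 targets, the 10 largest differences each way among genes apart from every other library, fixed examples of each list and its 3 largest called members. Aen was added for its promoter match. Some fixed examples are left out of the text, and 1 of the 10 highest genes is not reported here. Alternatives were pseudocount, filter, scaling, replicate block, all 12 libraries, each library left out and each comparator group left out. Promoter sequences are RefSeq, build GRCm38.p6, which differs from mm9; 44 of 53 p53 targets matched an entry by symbol.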

Additional observations from a re-analysis of the deposited data

How the results depend on the processing

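Directions of the whole table followed the scaling between libraries. Under quantile normalization 4259 genes were higher and 3223 lower, with 2791 apart and lower; higher genes numbered 3665, 3741 and 3565 against siRpl14, siRpl18 and siRpl23 singly, and lower genes 3003, 2818 and 2805. Under median-ratio scaling 4302 were higher and 3564 lower, with 3645 apart and higher and 2966 apart and lower; against each knockdown singly 4003, 3824 and 3772 were higher, and 3319 (siRpl14) and 3102 (siRpl23) lower. With each library left out in turn, 1600 to 2278 genes were higher and 4436 to 5365 lower, and 1446 to 1859 and 4063 to 4608 of them apart. Under the other alternatives these counts, of genes called at any size of difference, stayed within 1.5 times. With the replicate block 2513 were higher and 5706 lower; deviations of same-numbered libraries correlated at -0.073 to 0.209 between groups and were not taken as pairs, though replicate 2 was above replicate 1 in summed FPKM and in the share of ribosomal protein genes in all 5 groups of the first table. With the block Eef2 (0.099, adjusted p = 0.0058), Mdm4 (0.083, adjusted p = 0.023) and Rpl3 (-0.094, adjusted p = 0.0082) were called, and the counts became 22 lower and 8 higher for glycolysis and 5 higher for interferon genes. Signs turned under median-ratio scaling for Aen (0.047), Bax (0.0016), Cdk1 (0.049), Rpl3 (0.083), Rps27l (0.098). Signs turned under quantile normalization for Ddx4 (0.0060), Eef2 (-0.056), Rps19 (-0.21). Of 131 of the named genes, 118 kept their direction and their side of the threshold under all 18 alternatives. Ccne1, Cdk1, Dazl and Ddx4, which lost their calls under a change of scaling, are not in this count. The cause of these changes was not tested. Depth limits the genes near 1 FPKM, where the absolute depth is unknown.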

Other observations

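The gene families below were chosen after values were seen and get counts only. Of 52 genes of lysosomal enzymes and membrane proteins tested, 42 were lower and 1 higher after siRpl11 (median -0.37, beside -0.12 over all genes), 80.8% lower and 1.92% higher, beside 44.5% and 18.4% of all genes; under quantile normalization 6 were higher and 32 lower, and under median-ratio scaling 6 and 32, and 2 were higher without siRpl18 replicate 2 or siRpl23 replicate 2, or with siRpl18 out of the comparator mean. Of the 47 at 1 FPKM or more in both siRpl11 libraries, 38 were lower. Of 10 keratin genes, 9 were lower and 0 higher (median -0.96), and of 7 claudin genes, 6 were lower and 0 higher. These are 90% and 85.7% lower, beside 44.5% of all genes. Of the keratins, 5 were under 1 FPKM in a siRpl11 library, as were 4 of the claudins, and passed with the help of the other groups; all 5 other keratins and all 3 other claudins were lower. Among all tested claudins 3 were lower under quantile normalization. Solute carriers, which move ions and nutrients across membranes, were lower in 106 of 187 genes and higher in 19; under quantile normalization 50 were higher and 66 lower, and under median-ratio scaling 46 and 79, and 10 were higher without siRpl11 replicate 1. Of the 156 at 1 FPKM or more in both siRpl11 libraries, 86 were lower. Over all tested solute carriers 56.7% were lower and 10.2% higher, beside 44.5% and 18.4% of all genes. Of 306 zinc finger genes named Zfp and a number, 86 were higher and 68 lower, 28.1% higher and 22.2% lower, beside 18.4% and 44.5% of all genes. Under quantile normalization 200 were higher and 23 lower, and under median-ratio scaling 149 and 36, and 56 were higher without siRpl11 replicate 1. Of the 267 Zfp genes at 1 FPKM or more in both siRpl11 libraries of the first table, 86 were higher and 55 lower. Of 78 mitochondrial ribosomal protein genes, 28 were higher and 13 lower, and of 37 proteasome subunit genes 14 and 4. These are 35.9% and 37.8% higher, beside 18.4% of all genes. Both moved with the scaling. Of the mitochondrial genes, under quantile normalization 32 were higher and 9 lower, and under median-ratio scaling 55 and 5. Of the proteasome genes, under quantile normalization 12 were higher and 7 lower, and under median-ratio scaling 30 and 1, and 2 were lower without siRpl11 replicate 1. Of the 36 proteasome genes at 1 FPKM or more in both siRpl11 libraries of the first table, 14 were higher and 3 lower.

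Gas5, the host of several small nucleolar RNAs, was far lower in the third library of every group than in the other 2. It stood at 37.1, 37.3 and 1.21 FPKM in siRpl11, 29.5, 30.0 and 1.49 in siRpl14, 30.7, 30.6 and 1.61 in siRpl18 and 27.7, 28.5 and 1.14 in siRpl23. Its difference was 0.33 ± 0.03 (SE, adjusted p = 3.7e-05) in the first table and -0.12 in the third.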
